A study of Homo sapiens with 18 samples.

Results

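PEA1 and A2780 are established platinum-sensitive ovarian cancer cell lines of unrelated origin, and their open chromatin was compared by ATAC-seq, which cuts accessible DNA with the Tn5 transposase and counts the resulting fragments. PEA1 was derived from ascites of high-grade serous disease before platinum treatment, whereas A2780 is labelled an endometrial/ovarian cancer line and is not of high-grade serous type. Both were grown untreated in the same medium, with 3 replicate libraries each, and these 6 libraries were taken out of 18 in the series by their line labels. The other lines are CP70, selected in culture from A2780 for platinum resistance, PEA2, the resistant line from the patient of PEA1, and the PEO1 and PEO4 pair from another serous tumour. Each line is 1 culture lineage, so a difference between PEA1 and A2780 is a difference between these 2 lines and cannot be told apart from that between their tumour types or donors. Nothing in the labels says that the replicates of a line were separate cultures, and p-values then measure only the spread between these libraries.

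Open chromatin of a cell line is largely of 2 kinds. CpG-rich promoters of genes that every cell uses are open in nearly all cell types, whereas distal elements, such as enhancers, open where lineage factors and signal-driven factors of the AP-1 family (FOS and JUN dimers) bind, and so differ between cell types. CTCF, a zinc finger protein that organises chromatin loops, marks a further class of distal sites.

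The table holds accessibility as FPKM, read counts scaled to library size and window length, in 89428 windows of about 1 Kb, and 45025 of them had a mean above 1 FPKM over the 6 libraries and were tested. Library totals were 20835511 to 32068269 reads in PEA1 and 44337054 to 60435027 in A2780, which gave medians of 22 to 42 and 30 to 42 reads per window. The windows took 12.9% to 16.8% of a library in PEA1 and 8.38% to 10.0% in A2780. These ranges did not overlap, although both lay below the 34.4% ± 1.51 (SD, n = 3) of PEO4 and the 39.9% ± 0.949 of PEO1 (exact permutation test of PEA1 against A2780, two-sided p = 0.1, the smallest that 3 against 3 libraries allow). The lines were therefore alike in signal over background only next to the PEO lines. With the values as deposited, the median log2 fold change of PEA1 over A2780 was 0.78 over the windows tested, and after quantile normalisation of log2(FPKM + 0.1) it was 0.03. Values per library below are normalised FPKM, and at low values libraries that fall on the same rank step share a value.

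Sites from windows that differed and from 1 shared window are shown first, as GRCh37 sequence around a motif match, as examples of the motifs described below. The first 3 are distal windows higher in PEA1 and the next lies upstream of SOX9, all with the AP-1 match TGACTCA in capitals, written on the strand that carries the match.
SVIL intron, chr10:29948028-29948104, plus strand: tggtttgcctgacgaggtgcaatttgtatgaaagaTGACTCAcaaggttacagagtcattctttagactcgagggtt
EGFR intron, chr7:55154092-55154168, minus strand: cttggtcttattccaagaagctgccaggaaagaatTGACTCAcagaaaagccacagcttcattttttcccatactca
TGFBI upstream, chr5:135356386-135356462, plus strand: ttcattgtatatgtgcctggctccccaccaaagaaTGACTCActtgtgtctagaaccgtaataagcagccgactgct
SOX9 upstream, chr17:70116575-70116651, minus strand: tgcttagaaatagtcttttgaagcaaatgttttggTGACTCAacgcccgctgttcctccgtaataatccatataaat
The next stretch is from a window between genes that was higher in A2780, with a CTCF match in capitals, and the last is from the promoter window of IDI1, which was open and alike in both lines, with the ETS match CCGGAAG in capitals.
Between genes, chr16:62259726-62259807, plus strand: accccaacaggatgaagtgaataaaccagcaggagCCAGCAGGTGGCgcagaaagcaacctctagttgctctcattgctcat
IDI1 upstream, chr10:1095270-1095346, plus strand: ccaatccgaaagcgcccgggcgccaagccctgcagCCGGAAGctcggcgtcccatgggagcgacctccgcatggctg

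The first question was how much of the accessible genome the lines share. A window was counted as shared where the 95% interval of its log2 fold change lay within -1 to 1 and all 6 libraries were above 2 FPKM after normalisation. There were 8072 such windows, 17.9% of those tested. Of 9029 windows above 2 FPKM in all 6 libraries 89.4% were shared and 2 were called different, where a call needed a log2 fold change beyond 2 and a limma adjusted p below 0.001. The level of 2 FPKM itself leaves little room for a call, which then needs far higher values in the other line. The small number of calls there is therefore no measure of likeness. Shared windows were mostly promoters, but the shares that follow describe the level of 2 FPKM as well as likeness. They stand beside all windows tested, and those of the 9029 windows above that level are not given here. Those assigned to promoters, from 1 Kb upstream to 100 bp downstream of a start site, were 63.3% of the shared windows and 32.9% of all windows tested, and 9.85% of the shared windows against 39.0% of all lay over 5 Kb from a protein-coding start. CpG-rich windows were 87.0% of the shared and 43.0% of all windows. Of 11872 windows at a protein-coding transcription start site (TSS windows), 43.7% were shared, which covered 5636 of 12679 genes, and 93.3% of these shared TSS windows were CpG-rich against 84.3% of all TSS windows.

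The shared promoters with the most signal were those of EBAG9, SP4, ENY2, IDI1 and DCUN1D4. SP4, a zinc finger activator of GC-rich promoters, had 11.3, 13.4 and 11.4 normalised FPKM in PEA1 and 15.2 to 16.6 in A2780, with a log2 fold change of -0.41 (95% interval -0.55 to -0.27). ENY2, a subunit of the SAGA and TREX-2 complexes, had 14.2, 15.8 and 14.6 in PEA1 and 11.3, 11.9 and 11.5 in A2780 (0.36, interval 0.23 to 0.49). In both genes the libraries of the lines did not overlap, so shared windows still held small differences. DCUN1D4, a co-factor of cullin neddylation, had overlapping libraries, 10.7 to 13.7 in PEA1 and 10.7 to 11.4 in A2780, and a log2 fold change of 0.14 (interval -0.01 to 0.30). IDI1, an enzyme of isoprenoid synthesis, was at 14.9, 14.9 and 15.8 in PEA1 and at 9.01 to 9.27 in A2780 (0.73, interval 0.60 to 0.86), and EBAG9 at 13.9 to 18.1 and 12.1 to 12.7 (0.34, interval 0.18 to 0.49). The direction of SP4 was the same under 5 other scalings (-0.90 to -0.02), while EBAG9, ENY2, IDI1 and DCUN1D4 changed sign when the median of their 5 Mb bin was removed (-0.61, -0.59, -0.34 and -0.51), and EBAG9, ENY2 and DCUN1D4 also did with median centring (-0.12, -0.08 and -0.28). Among shared distal windows the highest were near ZFAT and H3-7, in OXR1, and near ERVMER34-1 and TMEM106A, with log2 fold changes from -0.43 near H3-7 to 0.80 near ZFAT, of which only that near ZFAT kept its sign under the other scalings.

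The second question was which windows differ. In all, 1759 windows (3.91%) were called higher in PEA1 and 598 (1.33%) higher in A2780, and none of them had overlapping libraries. Non-overlap by itself was common, with 36.3% of all tested windows apart towards PEA1 and 32.1% towards A2780. At thresholds of 1 and 0.05, 8041 windows (17.9%) were higher in PEA1 and 3912 (8.69%) higher in A2780. The balance between the directions depended on the scaling. Calls higher in PEA1 were 74.6% of all calls after quantile normalisation, 95.2% with the values as deposited, 72.4% once the median of its 5 Mb bin was taken from each window, 56.2% with median centring, 49.4% when the quantile normalisation followed the filter and 43.8% after a GC correction. Under these 6 scalings together 337 windows were called higher in PEA1 and 248 higher in A2780, so a core in each direction did not hang on the scaling, while the excess towards PEA1 did. In bulk libraries a window open in fewer cells and a window less open in each cell cannot be told apart.

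**Figure D1:**
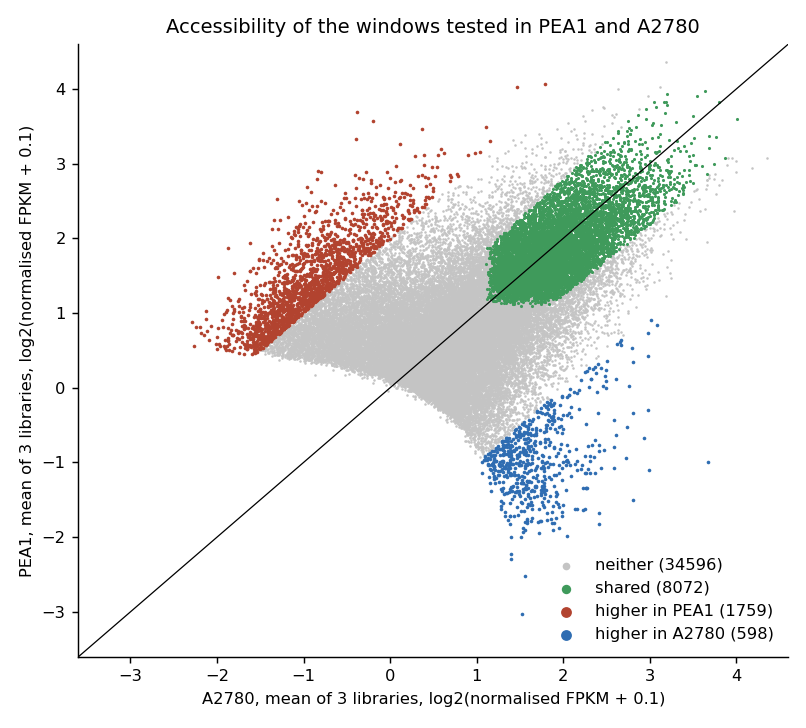
Mean log2(normalised FPKM + 0.1) of the 3 A2780 libraries (horizontal axis) and of the 3 PEA1 libraries (vertical axis) for the 45025 windows tested, 1 point a window, with the 1759 windows called higher in PEA1, the 598 higher in A2780 and the 8072 shared windows in colour. Most called windows lie near background in one line, and the shared windows lie along the line of equality.

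The called windows were distal in both directions. Windows over 5 Kb from a protein-coding start were 90.2% of those higher in PEA1 and 75.9% of those higher in A2780, against 39.0% of all. Windows in introns made up 47.4% of the calls higher in PEA1 and 26.6% of those higher in A2780, and windows between genes 43.5% and 51.2%. CpG-rich windows were 3.98% and 21.1%, against 43.0% of all, and the median GC content was 45.9% and 51.8%, against 57.2%.

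Motif matches separated the sets, as a description of windows that are not independent of their neighbours. Each pattern was searched on both strands of the whole window, and none contains another. The AP-1 match stood in 46.2% of windows higher in PEA1, 12.9% of those higher in A2780, 8.54% of the shared and 18.6% of all windows tested. Among distal windows alone these shares were 47.7%, 14.5%, 13.5% and 30.5%. The RUNX match TGTGGTT went the same way, in 34.1%, 16.2%, 8.47% and 14.2% of the same sets over all windows. The TEAD match ACATTCC was in 20.5% of windows higher in PEA1 and 10.2% of those higher in A2780, against 11.5% of all, and the HNF1 match in 4.32% and 1.17%, against 0.995%. CTCF matches ran the other way, with 0.341% of windows higher in PEA1, 5.85% of those higher in A2780 and 2.57% of all. The ETS match was most frequent in shared windows, at 26.4%, against 5.29% and 10.5% in the windows higher in PEA1 and in A2780. Windows higher in PEA1 were poorer in GC, and GC content moves with these shares. Within distal windows below 42% GC, AP-1 matches were in 50.9% of those higher in PEA1, 21.4% of those higher in A2780 and 41.0% of all. At 50% GC or more, the shares were 45.6%, 10.5% and 24.9%. CTCF matches among distal windows below 42% GC were in 0.499% of those higher in PEA1, 2.56% of those higher in A2780 and 3.16% of all, and at 50% or more in 0.824%, 5.74% and 5.17%. Between these limits the shares were 0.122%, 11.7% and 3.41%, so the windows higher in PEA1 had the lowest share in each class, and those higher in A2780 lay below all distal windows in the first. Below 42% GC the sets held only 401 windows higher in PEA1 and 117 higher in A2780. The smallest of these CTCF shares therefore rest on few matches, and their order between GC classes is uncertain.

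Over all distal windows the same shares changed with the log2 fold change. In 10 equal groups, from the lowest values, -4.66 to -1.04, to the highest, 1.95 to 4.07, the share with an AP-1 match went from 13.0% to 47.8% and that with a RUNX match from 14.1% to 34.6%. The share with a CTCF match went from 11.1% to 0.399% and that with an ETS match from 10.5% to 4.27%. The median GC content of these outer groups was 54.9% and 45.6%.

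**Figure D2:**
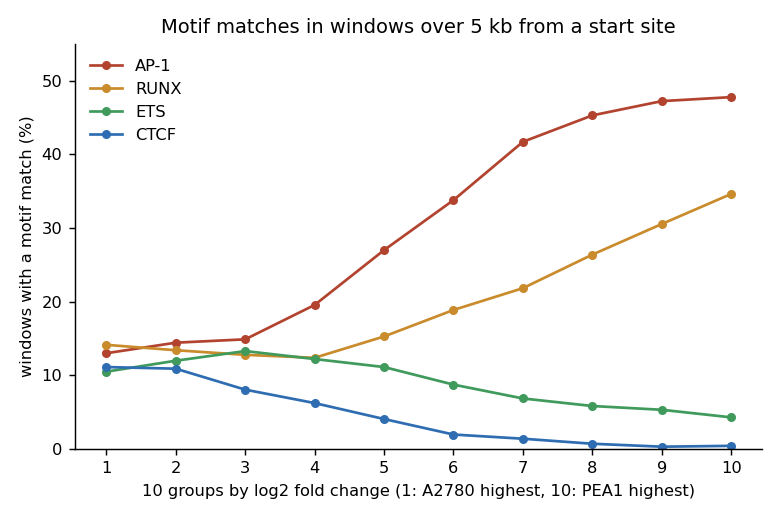
Share of distal windows with an AP-1, RUNX, ETS or CTCF match (vertical axis, percent) in 10 equal groups of the distal windows ordered by log2 fold change, from highest in A2780 (1) to highest in PEA1 (10). AP-1 matches go from 13.0% to 47.8% and CTCF matches from 11.1% to 0.399%.

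The genes of AP-1 themselves differed little at their promoters. Of 11 FOS, JUN, ATF3 and BATF genes 9 had a tested TSS window, 7 of these were shared, and none was called. At thresholds of 1 and 0.05, where 4.95% of TSS windows were higher in PEA1 and 7.4% higher in A2780, 2 were higher in PEA1. FOSL1, an AP-1 subunit induced by ERK signalling, had 3.01, 2.79 and 3.29 normalised FPKM in PEA1 and 1.31, 1.06 and 1.498 in A2780 (log2 fold change 1.18, SE 0.152, limma adjusted p = 3.01e-07). FOSB, an immediate early gene, had 4.55, 4.46 and 2.94 against 1.52, 1.78 and 1.87 (1.14, SE 0.150, limma adjusted p = 4.08e-07). The promoter of JUN was shared, at 5.08 to 5.97 in PEA1 and 3.03 to 3.59 in A2780. Of the genes of the YAP and TEAD pathway, which share many enhancers with AP-1, 16 had a tested TSS window, 8 were shared and none passed either threshold.

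Among the distal windows with the largest differences, those higher in PEA1 lay in SVIL and AXIN1 and 211.3 Kb from the start of TRIB1 on chromosome 8. The SVIL window (chr10:29947500-29948500), in an intron of the gene of the actin-binding protein supervillin and shown above, had 5.88, 5.14 and 6.04 normalised FPKM in PEA1 and 0.221, 0.465 and 0.268 in A2780, which differed by 3.83 on the log2 scale (SE 0.194, limma adjusted p = 8.61e-14). The AXIN1 window, in an intron of this scaffold of the WNT destruction complex, had 12.3, 12.2 and 10.9 against 0.751, 0.820 and 0.736 (3.77, SE 0.115, limma adjusted p = 2.52e-17). In every PEA1 library these windows were well open, and in every A2780 library they were below 1. The TRIB1 window (chr8:126653400-126654400) had 12.9, 11.9 and 13.5 against 0.751, 0.504 and 0.770, with a log2 fold change of 4.07 that was 2.67 after removal of its 5 Mb bin median.

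In A2780 the distal windows with the largest differences lay between genes on chromosomes 15 and 9 and beside DLX1. The window near KDM4C (chr9:6704100-6705100) had 2.77, 3.08 and 2.49 normalised FPKM in A2780 and no read in any PEA1 library. Its signal was at least 19.6-fold higher in A2780, taken against the level of 3 reads per library (limma adjusted p = 3.55e-12). Mean deposited FPKM there were also 0 in PEA2, and 5.17 in CP70, 2.92 in PEO1 and 3.38 in PEO4. Whether this DNA is present in PEA1 and PEA2 was not tested. The window at the chromosome 15 site (chr15:22545000-22546000) had 13.4, 11.8 and 12.9 in A2780 and 0.320, 0.323 and 0.620 in PEA1 (log2 fold change -4.66, and -2.70 after removal of its bin median). It lies in a bin at 20 to 25 Mb where the median over 118 windows was -1.96 and 53 were called higher in A2780, so the difference there was not confined to single sites.

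Few promoters were called at the main thresholds. Of the 11872 TSS windows 62 (0.522%) were higher in PEA1 and 58 (0.489%) higher in A2780, against 3.91% and 1.33% of all windows, and 23 and 15 of these were called under all 6 scalings. At thresholds of 1 and 0.05 the share higher in A2780 was 7.4%, near the 8.69% of all windows, and that higher in PEA1 4.95%, against 17.9%. The shares of promoters and of all windows were not tested against each other. Among the promoters with the largest differences towards PEA1 was that of NCALD. NCALD, a neuronal calcium sensor, had 4.06, 4.41 and 4.26 normalised FPKM in PEA1 and 0.288 in each A2780 library (log2 fold change 3.48, SE 0.182, limma adjusted p = 1.27e-13). Others were the zinc finger genes ZNF572 and ZNF594, the sodium-proton exchanger SLC9B1, the potassium channel KCNJ16, the clustered protocadherin PCDHB8, the serine palmitoyltransferase subunit SPTLC3, the vesicle protein SYTL3 and ENSG00000289761, with log2 fold changes from 2.73 for SYTL3 to 3.15 for ZNF572. ZNF572 and SPTLC3 fell below 2 when the median of their 5 Mb bin was removed (1.75 and 1.71).

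Among the promoters with the largest differences towards A2780 were those of CBLN1 and PRDM9. CBLN1, a secreted organiser of cerebellar synapses, had 5.75, 5.29 and 5.28 normalised FPKM in A2780 and 0.363, 0.531 and 0.504 in PEA1 (log2 fold change -3.30, SE 0.163, limma adjusted p = 6.20e-14). PRDM9, the histone methyltransferase that sets meiotic recombination hotspots, had 5.51, 5.97 and 6.58 against 0.433, 0.504 and 0.740 (-3.24, SE 0.166, limma adjusted p = 9.84e-14). Both were open in A2780 and near background in PEA1, and so was FSIP2, which encodes a sperm tail sheath protein, at 2.93 to 3.67 against 0.293 to 0.504. EDA2R, FAM174C, CYB5D1, ZSWIM2, SIM1 (a bHLH-PAS factor of hypothalamic neurons) and JAM3 (a junctional adhesion molecule) had log2 fold changes from -3.17 for EDA2R to -2.93 for JAM3. The log2 fold changes of these promoters stayed beyond -2 under all 6 scalings.

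**Figure D3:**
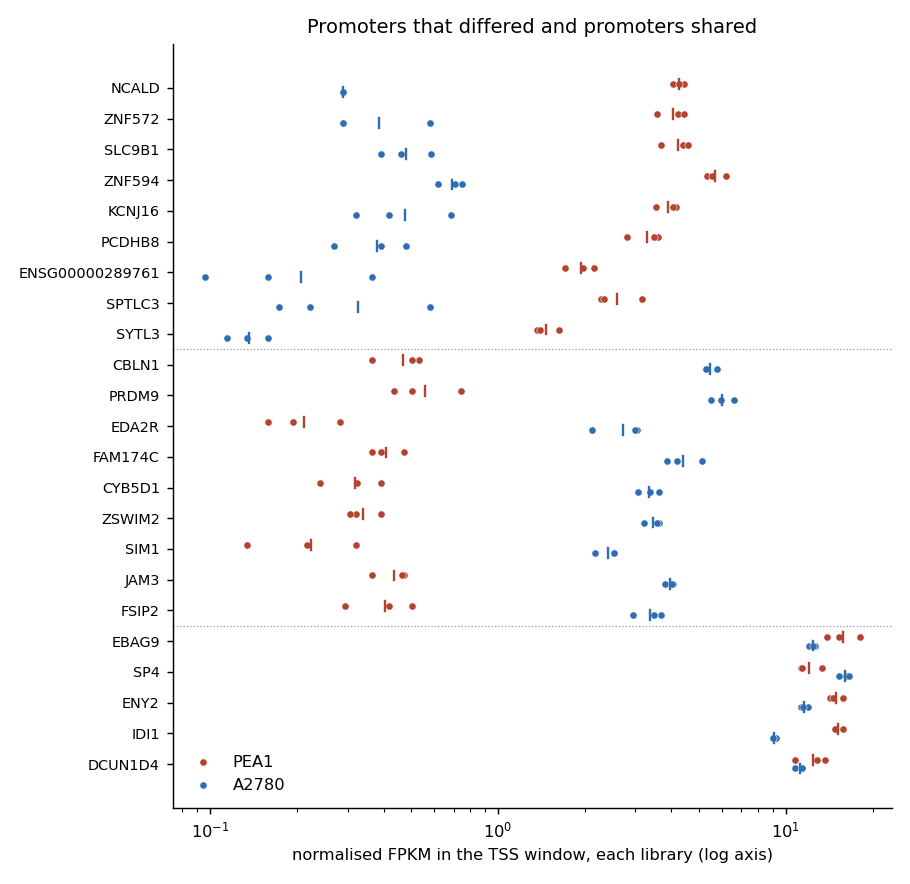
Normalised FPKM in the TSS window (log axis) of promoters among the 10 with the largest differences in each direction and of the 5 shared promoters with the most signal. Points are the 3 libraries of PEA1 and of A2780 and short bars their means. The lines are apart in the upper 18 genes and close in the last 5.

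Genes of Müllerian and serous identity were then examined, since PEA1 comes from serous disease. Of 10 such factors 7 had a tested TSS window and none was called at the main thresholds, with a median log2 fold change of -0.09 against -0.15 over all TSS windows. At thresholds of 1 and 0.05, 1 was higher in PEA1 and 1 higher in A2780. PAX8, the paired box factor used to identify Müllerian tumours, had 2.42, 2.19 and 3.29 normalised FPKM at its promoter in PEA1 and 0.967, 0.465 and 0.947 in A2780 (log2 fold change 1.65, SE 0.216, limma adjusted p = 3.76e-07). PAX2, its close relative, was the reverse, with 1.39, 1.31 and 1.52 in PEA1 and 3.73, 3.61 and 3.38 in A2780 (-1.29, SE 0.134, limma adjusted p = 1.06e-08). Across the genes of this list and 10 Kb upstream, 3 of 42 tested windows were called, all higher in PEA1, where 3.91% of all windows were, and all at PAX8. The strongest of them (chr2:113998500-113999500), in an intron, had 5.30, 5.07 and 5.71 against 0.790, 0.616 and 1.15 (2.56, SE 0.165, limma adjusted p = 3.47e-12). WFDC2, which encodes the serum marker HE4, was the 1 of 6 tested surface and serum markers past the lower thresholds, at 3.55, 3.66 and 4.11 against 1.10, 1.31 and 1.70 (1.42, SE 0.150, limma adjusted p = 1.32e-08).

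SOX9, a factor of ductal and cartilage differentiation, was the only one of 10 tested SOX promoters that was called, where 0.522% of all TSS windows were called higher in PEA1. It had 4.81, 4.02 and 4.56 normalised FPKM in PEA1 and 0.751, 1.06 and 1.29 in A2780 (log2 fold change 2.04, SE 0.160, limma adjusted p = 9.38e-11), a call close to the threshold that fell to 1.82 with removal of the bin median and to 1.92 with median centring or quantile normalisation after the filter. It was 1.86 without A2780 replicate 1 and 1.98 without PEA1 replicate 1. PEA2 over CP70 was 0.54 there and not called. Of the genes of epithelial adhesion 12 had a tested TSS window and none was called, with ELF3 and DSP higher in PEA1 at the lower thresholds (1.37 and 1.01). Among 3 tested keratins KRT80 and KRT8 passed the lower thresholds, both higher in PEA1 (1.51 and 1.05), and KRT18 had a log2 fold change of 0.55. Mesenchymal genes split between the lines. SPARC, a matrix glycoprotein, was called higher in A2780, with 2.75, 3.45 and 3.19 against 0.524, 0.582 and 0.620 in PEA1 (-2.25, SE 0.175, limma adjusted p = 7.23e-11), and COL5A2 passed the lower thresholds in the same direction (-1.84). VIM, TGFBI, FN1 and SNAI1 passed them in the other direction, from 1.01 for FN1 to 1.42 for VIM, out of 16 tested.

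Oncofetal and pluripotency genes held 2 called promoters out of 9 tested, both higher in A2780. Of all TSS windows 0.522% were called higher in PEA1 and 0.489% higher in A2780, and at the lower thresholds 4.95% and 7.4%. SALL4, a zinc finger factor of embryonic stem cells and germ cell tumours, had 2.66, 2.90 and 2.72 normalised FPKM in A2780 and 0.320, 0.391 and 0.465 in PEA1 (log2 fold change -2.55, SE 0.198, limma adjusted p = 7.81e-11). IGF2BP1, an oncofetal RNA-binding protein, passed the lower thresholds (-1.33), and 5 of the 9 promoters were shared. Of 17 tested cyclin and G1 control promoters only that of CCND2, the gene of cyclin D2, was called, with 3.35, 2.92 and 3.40 in A2780 and 0.457, 0.496 and 0.540 in PEA1 (-2.47, SE 0.177, limma adjusted p = 1.87e-11). CDKN2A, CDKN1A and MYC passed the lower thresholds in the direction of PEA1 (1.16, 1.09 and 1.05), and MYC lies on chromosome 8, where removal of the bin median gave -0.35. Of 19 tested receptor tyrosine kinase promoters 1 was called, DDR2, a collagen receptor, with 2.45, 2.27 and 1.95 in A2780 and 0.363, 0.283 and 0.465 in PEA1 (-2.32, SE 0.220, limma adjusted p = 2.32e-09). MET and DDR1 passed the lower thresholds in the direction of PEA1 (1.09 and 1.04). For EGFR the difference was in an intron, at the window shown above, with 3.29 to 4.20 in PEA1 and 0.477 to 0.504 in A2780 (2.73, SE 0.171, limma adjusted p = 2.12e-12). Of 114 tested windows in or upstream of the receptor tyrosine kinase genes, 2 (1.75%) were called higher in PEA1 and 2 (1.75%) higher in A2780. Over all windows these shares were 3.91% and 1.33%.

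Genes that act on platinum and its adducts are given beside all TSS windows, of which 0.522% were called higher in PEA1, 0.489% higher in A2780, and 43.7% were shared. None of 28 tested promoters of homologous recombination and Fanconi genes was called and 10 were shared. XRCC2 and FANCB were higher in A2780 at the lower thresholds (-1.34 and -1.22), and BRCA1 had a log2 fold change of -0.28 (95% interval -0.57 to 0.02). None of 19 promoters of excision, mismatch and translesion repair genes was called and 9 were shared, with ERCC4 and ERCC5 higher in A2780 at the lower thresholds (-1.17 and -1.05). Of 21 platinum transport and detoxification promoters none was called, 6 were shared and GCLC, the catalytic subunit of glutathione synthesis, was higher in A2780 at the lower thresholds (-1.08). Across the genes of these lists and 10 Kb upstream, 1 of 73, 1 of 63 and 1 of 59 tested windows were called. Each was higher in PEA1, where 3.91% of all windows were. That of the excision list lay in an intron of ERCC1 (2.06, SE 0.142, limma adjusted p = 1.04e-11) and was not called under all 6 scalings. The ribosomal protein promoters gave 0 calls of 78, with 26 shared and 6 higher in A2780 at the lower thresholds. Their median was -0.29, against -0.15 over all TSS windows. The gene lists with no called promoter held 275 tested windows together, of which 180 had an unadjusted limma p below 0.05. The share below 0.05 over all TSS windows is not given here, so this count is not a result about the lists. Neither edgeR nor voom called any of the 275. These lists were picked for having no limma call on the same libraries, so that adds little.

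Of 25 tested interferon and antigen presentation promoters none was called, and at the lower thresholds 4 were higher in PEA1, TAP1, PSMB9 and OAS2 among them, and IFIT3 was higher in A2780. TAP1 and PSMB9 share 1 window between their starts. Of 69 windows in or upstream of these genes 4 were called, all higher in A2780, where 1.33% of all windows were, and all at the neighbouring genes IFIT2 and IFIT3. One lay in an intron of IFIT3, an interferon-induced antiviral protein, with 4.53, 5.03 and 4.74 in A2780 and 0.4998, 0.351 and 0.283 in PEA1 (-3.37, SE 0.184, limma adjusted p = 2.34e-13). The HOX clusters gave 19 tested promoters, none called and none shared, with 3 higher in PEA1, HOXA13 and HOXB9 among them, and HOXC10 higher in A2780 at the lower thresholds. Of the genes the study names 9 were tested, and besides SOX9 the promoters of VEPH1 and THBS1 passed the lower thresholds in the direction of PEA1 (1.83 and 1.34) and CCDC80 in that of A2780 (-1.85). The p53 target promoters held 0 calls of 19, with CDKN1A and RRM2B higher in PEA1 and SESN2 higher in A2780 at the lower thresholds (1.09, 1.17 and -1.15), of which SESN2 was 0 after removal of its bin median. The endometrioid and clear cell list held 0 calls of 7, with 1 higher in PEA1 and 1 higher in A2780 at the lower thresholds, the latter ARID1A (-1.12), which changed sign, to 0.022, when the bin median was removed.

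Leukocyte, endothelial and fibroblast markers were nearly absent from the table, in which 68.3% of all protein-coding genes had a TSS window. Of 14 leukocyte markers 1, CD14, had a TSS window in the table, of 7 endothelial markers 1, and no fibroblast marker of 6. CD14, a monocyte receptor, passed the lower thresholds in the direction of PEA1 (1.10). Mesothelial markers had 4 of 5 TSS windows in the table and neuronal markers 4 of 8, and of these LRRN4 and SNAP25 passed the lower thresholds in the direction of PEA1 (1.93 and 1.88), out of 3 and 4 tested.

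Several genes had many called windows around them. In A2780 the locus of DLX1, a homeobox factor of forebrain and limb development, held 19 called windows of 22 tested, reaching through its neighbour METAP1D (chr2:172911600-172959400), and 17 of them were called under all 6 scalings. The largest, in METAP1D, had 6.60 to 7.26 normalised FPKM in A2780 and 0.216, 0.260 and 0.283 in PEA1 (log2 fold change -4.32, SE 0.167, limma adjusted p = 9.26e-16). Over these 19 windows deposited FPKM were 2.19 to 5.87 in A2780, with medians of 0.291 in PEA1, 0.461 in CP70, 0.166 in PEA2, 0.0743 in PEO1 and 0.297 in PEO4. CP70, the derivative of A2780, reached at most 2.14 there. At the DLX1 start itself the window was not called (log2 fold change -0.69). Its deposited FPKM were 6.32 in A2780, 5.69 in PEA1 and 7.13 in CP70, and 4.75 to 5.33 in the other lines. Only 1 of the 19 passed the filter in PEA2 and CP70, and without that filter 6 of the 19 were called higher in CP70 than in PEA2, with a median log2 fold change of -1.80. The related gene DLX6 held 4 called windows of 7, all under all 6 scalings. CCND2 held 5 of 5, SPRY2, a feedback inhibitor of ERK signalling, 5 of 11, and ANO3, a scramblase of the anoctamin family, 5 of 8. The site on chromosome 15 nearest to AC010760.1 held 27 of 34, of which 1 was called under all 6 scalings.

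In PEA1 the gene with the most called windows was ANXA2, the gene of annexin A2, a calcium-dependent membrane-binding protein, with 8 of 13 tested windows (chr15:60662700-60695200), all in introns. Deposited FPKM over these 8 windows were 1.86 to 4.39 in PEA1 and 0.233 to 0.464 in A2780, and their medians were 1.86 in PEA2, 4.63 in PEO1, 2.76 in PEO4 and 0.460 in CP70. None of the 8 was called under all 6 scalings. In PEA2 and CP70, 6 of the 8 passed the filter. Without that filter none of the 8 was called higher in PEA2 than in CP70, with log2 fold changes of 0.17 to 1.42 (median 0.81). NDRG1, a stress-response gene on chromosome 8, held 7 of 21, including its promoter, RAI14, an actin-associated protein, 7 of 15, ANKRD33B 6 of 24, ANXA2R 6 of 30 and ENSG00000289653 6 of 18.

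**Figure D4:**
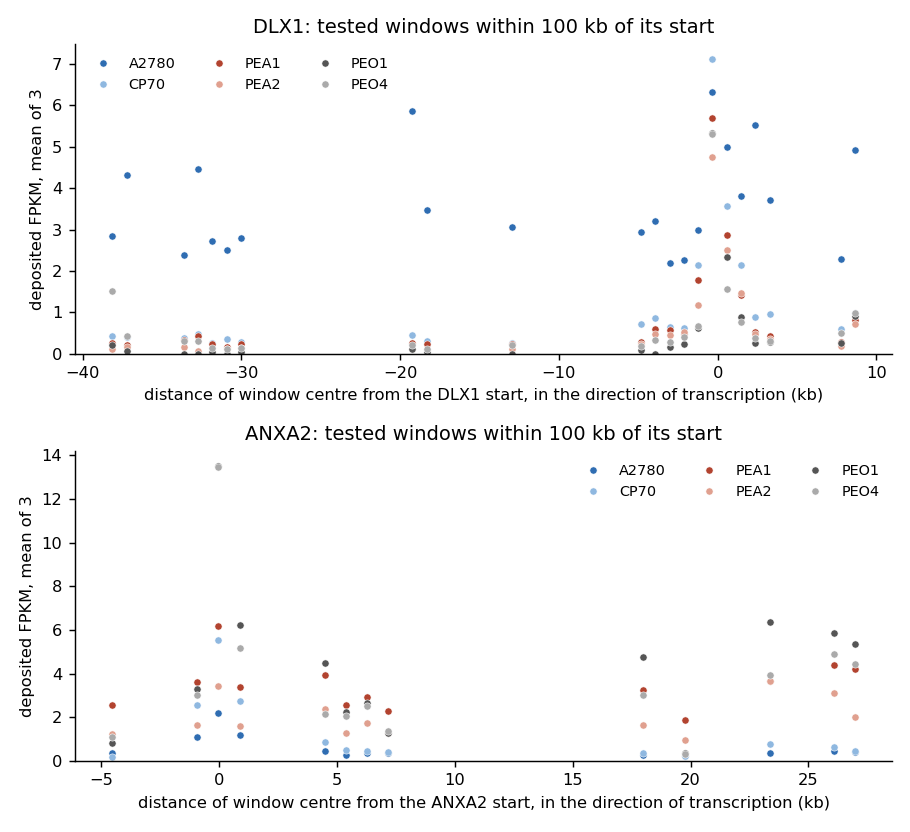
Deposited FPKM (mean of 3 libraries, vertical axis) of the tested windows within 100 Kb of the starts of DLX1 (top) and ANXA2 (bottom), against the distance of the window centre from the start in the direction of transcription, for all 6 lines. Around DLX1 the A2780 points stand at 2.19 to 5.87 in the called windows, and in the called ANXA2 windows both A2780 and CP70 stay below 1.

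The third question was whether these differences recur in the other lines of the same origins. PEA2 against CP70 used 6 libraries that took no part in the fit of PEA1 and A2780. It gave 7451 windows higher in PEA2 (11.7% of those tested) and 2631 higher in CP70 (4.14%). Every window of the table exceeds 2 FPKM in at least 2 libraries of the series, and PEA2 and CP70 are among these libraries. A window can thus have entered the table through them, so the recurrence below is not independent of that selection. Of the 1759 windows higher in PEA1, 617 (35.1%) were called higher in PEA2, and of the 598 higher in A2780, 224 (37.5%) were called higher in CP70 and 4 higher in PEA2. Over all 45025 windows the shares called were 4.68% and 4.46%. A window near background in both PEA2 and CP70 falls under the filter on low values, as 514 of the windows higher in PEA1 and 171 of those higher in A2780 did, and these count above as not called. Without that filter, an alternative added after the data were seen, 624 (35.5%) of the windows higher in PEA1 were called higher in PEA2 and 12 higher in CP70, and 262 (43.8%) of those higher in A2780 were called higher in CP70. PEA2 was then above CP70, by any amount, in 81.8% of the windows higher in PEA1, and CP70 above PEA2 in 89.0% of those higher in A2780, beside 33.9% and 66.1% of all windows. Of the shared windows 34 were called higher in PEA2 and 283 higher in CP70, which is 0.421% and 3.51%.

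**Figure D5:**
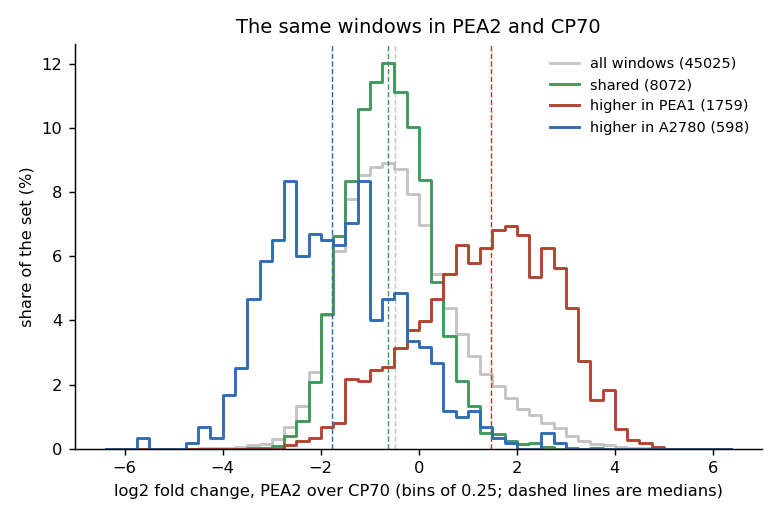
Distribution of the log2 fold change of PEA2 over CP70, without a filter on low values, for all windows called higher in PEA1, called higher in A2780 and shared, and for all 45025 windows, as the share of each set per bin of 0.25. Dashed lines are medians, at 1.48 for windows higher in PEA1, -1.76 for those higher in A2780, -0.63 for shared windows and -0.48 for all.

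Single loci recurred or did not. Of the called TSS windows that were tested in PEA2 and CP70, 20 of 58 higher in PEA1 and 22 of 55 higher in A2780 were called the same way. The share of all TSS windows called between PEA2 and CP70 is not given here, so these counts have no promoter background. PCDHB8, with 3.47 (SE 0.391), and ZNF572, with 2.21 (SE 0.263), were called higher in PEA2 over CP70, as were the SVIL, EGFR, TGFBI and PAX8 windows (3.44, 2.62, 2.31 and 2.13). SLC9B1, KCNJ16, SPTLC3, SYTL3 and ZNF594 were not called, from 0.47 for ZNF594 to 1.88 for SLC9B1. CBLN1, PRDM9, FAM174C, CYB5D1, SIM1 and JAM3 were called higher in CP70, from -3.48 for FAM174C to -2.01 for JAM3, and so were SALL4 (-2.54) and DDR2 (-2.01). ZSWIM2 (-0.81) was not called, and neither was any of the 5 windows of the CCND2 locus. NCALD, ENSG00000289761, EDA2R and FSIP2 fell under the filter on low values. The AXIN1 window did not recur, at -0.13 (SE 0.277), and its difference from the value in PEA1 and A2780 was 3.89 (SE 0.289, limma adjusted p = 2.83e-11). SPARC had the opposite sign, at 1.34 (SE 0.234), with a difference of -3.61 (SE 0.292, limma adjusted p = 1.10e-10). VIM was called higher in CP70, at -2.03 (SE 0.190), with a difference of 3.49 (SE 0.182, limma adjusted p = 6.04e-14).

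The PEO lines entered no fit. They were above 2 FPKM at a smaller share of the windows higher in PEA1 than of all windows tested. Deposited FPKM averaged above 2 in PEO1 at 58.7% of the former, against 73.9%, and in PEO4 at 52.9%, against 71.3%. In PEA2 the share of the windows higher in PEA1 was 61.3%, against 54.4%, and in CP70 1.31%, against 45.3%. At 39.1% of them PEA2 and both PEO lines were all above 2, and at 23.6% none of the other 4 lines was. Of the windows higher in A2780, 51.3% were above 2 FPKM in CP70, 32.1% in PEO1, 23.4% in PEO4 and 17.6% in PEA2, and at 32.6% none of the other 4 lines was. More reads fell in the windows in the PEO lines, which raises their deposited FPKM throughout: over all windows tested 73.9% were above 2 in PEO1 and 71.3% in PEO4, against 54.4% in PEA2 and 45.3% in CP70. Shares for several lines together are not given over all windows, so they have no background here. Every window of the table exceeds 2 FPKM in at least 2 libraries of the series. In the line itself, 95.7% of the windows higher in PEA1 and 71.4% of those higher in A2780 averaged above 2.

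Differences also followed chromosome position. Of the variance between windows 26.9% lay between bins of 5 Mb, and the medians of 526 bins with at least 20 windows ranged from -1.96 to 1.55. The highest was at 115 to 120 Mb of chromosome 8, where 35 of 95 windows were called higher in PEA1, and the bin that holds MYC had 59 of 243. Across chromosome 8 9.25% of windows were called higher in PEA1, against 3.91% in all. On chromosome 5 the bins from 85 to 100 Mb and from 105 to 120 Mb that had enough windows had medians of -1.62 to -1.09, and medians of at most 0.48 in PEA2 over CP70, from about 0. DNA copy number was not measured in these files, and its part in these blocks was not tested.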

How the data were processed

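ATAC-seq libraries of 6 ovarian cancer lines, 3 each, were aligned by the authors to hg19 with Bowtie2, duplicates were marked with Picard, and reads were counted in windows of about 1 Kb; tool versions are not given in the sources used here. The deposited values are the authors' FPKM, that is RPM divided by a window length that is the same for all windows, so within a library they are whole multiples of the value of 1 read, from which the authors' read counts and library totals were recovered. Each window of the table exceeds 2 FPKM in at least 2 libraries, so it is a selected set. Groups came from the line names in the labels.

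Here log2(FPKM + 0.1) was quantile normalised over the 6 libraries of PEA1 and A2780, and limma 3.58.1 (R 4.3.3; moderated test with trend, Benjamini-Hochberg adjustment) was run with a mean above 1 FPKM required. A call needed a log2 fold change beyond 2 and an adjusted p below 0.001, and the lower thresholds were 1 and 0.05. PEA2 against CP70, and the difference between both contrasts, were fitted alike. The study's methods name voom with limma; voom and edgeR 4.0.16 on the recovered reads were alternatives, with other scalings, pseudocounts, filters and left-out libraries. Scripts were tested on simulated data. Fold changes on the scale with a pseudocount understate those of low windows.

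A TSS window holds the canonical start of a protein-coding gene (GENCODE, GRCh37). CpG-rich means at least 50% GC and an observed to expected CpG ratio of at least 0.6. Named were the 10 promoters and 3 distal windows with the largest differences in each direction whose libraries did not overlap, the 5 shared promoters and 5 shared distal windows with the most signal, the genes with the most called windows, and called members of gene lists. List members past only the lower thresholds, other list members and the windows shown as sequence were chosen after their values were seen. The members and lists were chosen with earlier results of these data known. Sequences were read from GRCh37. Some list members and 1 sequence are not reported here. Intervals cover the spread between libraries or counting error only.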

Additional observations from a re-analysis of the deposited data

Results flagged for a closer look

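The contrast of PEA1 and A2780 differed from that of PEA2 and CP70, in the limma test of the difference itself (adjusted p below 0.001 and size above 2 on the log2 scale), at the following named windows. All values are the PEA1 over A2780 log2 fold change minus the PEA2 over CP70 one, and none was explained or tested further. Among promoters the difference was 2.68 at NCALD, 2.41 at ZNF594, 2.36 at SYTL3, 2.93 at FOSB, 2.49 at FOSL1, 3.01 at HOXB9, 3.49 at VIM and 2.18 at IDI1. It was -2.29 at ZSWIM2 and -3.61 at SPARC.

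Among windows away from promoters the difference was 5.45 near TRIB1, 3.89 in AXIN1, 3.997 in IGF1R, 3.35 at ANKRD33B, 2.42 in ANXA2, 2.35 in E2F3, 2.31 near ENSG00000289653, 2.22 near POU5F1, 2.21 in ERCC1 and 2.13 near ANXA2R. It was -2.57 in METAP1D, -2.15 near RPL37A, and -2.77, -2.54 and -2.13 at 3 further windows of the DLX1 locus. The IDI1 promoter was shared between PEA1 and A2780 and lower in PEA2 than in CP70, by -1.46 (SE 0.153).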

How the results depend on the processing

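Counts of windows higher in PEA1 (1759) and in A2780 (598) and of differing promoters (120) moved with the settings. Higher in PEA1 were 1131 windows after removal of bin medians, 672 after GC correction, 963 with median centring, 804 with quantile normalisation after the filter, 1154 with an upper limit on depth and 5554 as deposited. Higher in A2780 were 899 without a filter and 278 as deposited. A minimum mean of 2 FPKM gave 744, 86 and 58, and one of 5 FPKM gave 20, 1 and 7. A pseudocount of 0.5 gave 306, 225 and 37, and one of 1 gave 52, 41 and 7. Thresholds of 1 and 0.05 gave 8041, 3912 and 1467. Differing promoters were 66 with the upper limit and 319 as deposited. edgeR gave 1673 and 868, and voom 1744 and 877.

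Shared windows (8072) numbered 19248 with every library above 1 FPKM, 3818 with an interval within 0.5, 1424 at a minimum of 5 FPKM, 4223 as deposited and 0 with the upper limit, which removes the open windows. Windows with the same difference in PEA2 and CP70 (841) numbered 1313 at the lower thresholds and 886 without a filter. The AP-1 share of windows higher in PEA1 (46.2%) was 49.4% after removal of bin medians, 43.2% as deposited, 48.6% with quantile normalisation after the filter and 53.4% over windows called under all 6 scalings, the last added after the data were seen. ARID1A (0.022) and MYC (-0.35) changed sign when bin medians were removed. The cause was not tested for these.

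Leaving out 1 library gave 1365 to 2116, 442 to 723 and 100 to 128, with 7187 to 9441 shared and 738 to 887 of the same difference. The replicate block left 1759, 598 and 120 as they were; same-numbered libraries correlated at -0.06, 0.11 and -0.06, so the numbers do not pair them. Of 3699 values of 207 named windows that were not shared, 444 fell below the threshold that the window had passed, 25 rose above one, and 2 of windows past the lower thresholds changed sign (ARID1A and MYC, above).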
